A study of Mus musculus with 12 samples.

Results

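Gastric acid is made by the H+/K+ ATPase of the parietal cell together with the potassium channels that feed it, and 5 genes of this machinery were followed here. They are Atp4a and Atp4b, the alpha and beta subunits of the pump, and Kcnq1, Kcne2 and Kcnj15, which encode the channels or channel subunits of the apical membrane. The members were taken by gene symbol, and each of the 5 had exactly 1 probe set among the 22626 probe sets tested, which carried 12393 distinct gene symbols. RNA came from mucosal scrapings of the mouse fundus, the acid-secreting region of the stomach, and was measured on 12 one-colour arrays of short oligonucleotides. There were 3 arrays in each of 4 groups: gastrin knockout mice infused with gastrin for 1 week, gastrin-CCK double knockout mice, gastrin knockout mice infused with saline for 1 week, and wild-type mice. Neither the double knockout nor the wild-type mice were described as infused, so infusion differs along with genotype wherever they are set against an infused group. An age of 2 months and male sex were given for the saline-infused knockouts alone, and pooling of about 2 to 4 mice was given for the wild-type samples alone. No label gives a strain or ties each replicate to animals of its own. The p-values therefore speak only of the variation among these arrays, part or all of which may be technical.

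The parietal cell keeps the pump in internal membranes at rest and brings it to the apical surface when stimulated. The pump then exports a proton in exchange for a potassium ion, so acid secretion stops unless potassium is returned to the lumen. A channel built from the pore subunit KCNQ1 and the regulatory subunit KCNE2 does this recycling, and the inward rectifier encoded by Kcnj15 is also found in parietal cells. Gastrin, a hormone of the antral G cell, drives secretion mainly through histamine release from enterochromaffin-like cells, and also acts on parietal cells through the CCK-B receptor.

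Values are the intensities of the deposited table, in arbitrary linear units. The knocked-out gene was checked first: Gast intensity was at most 37 on the 9 knockout arrays and 318 to 823 on the 3 wild-type arrays. Cck lay between -9 and 130 over all 12 arrays and therefore checks nothing about the second deletion. Array medians were alike (403 to 421), and replicates within a group correlated at r = 0.955 to 0.973 over log2 values. The 3 double knockout arrays stood apart from the rest in ways that touch the brightest probe sets. The brightest value on them was 65365 to 71514, against 88899 to 113441 on the other 9 arrays. The control probe sets did not move in 1 direction. BioC-5 read 1784 to 2307, against 4435 to 7472, but BioB-M was higher, at 1169 to 1701 against 134 to 335. CreX-5 overlapped, at 13552 to 21432 against 20549 to 34406. The ratio of 3' to 5' Gapdh intensity, a measure of RNA integrity, was 1.01 to 1.32 on the 9 knockout arrays, and 1.51, 2.00 and 0.98 on wild-type arrays 1, 2 and 3.

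The alpha subunit of the pump, Atp4a, which carries the catalytic site, read 61110, 56477 and 58502 in gastrin-infused knockouts. It read 41032, 41586 and 37144 in double knockouts, and 36260, 44845 and 35107 in saline-infused knockouts. Wild-type samples gave 56627, 68031 and 58071. Every array without gastrin lay below every array with it, and the groups on either side of that gap overlapped one another. Group means were 58696 ± 2323 with gastrin infusion, 39921 ± 2421 in double knockouts, 38737 ± 5321 with saline and 60910 ± 6209 in wild type (SD, n = 3 each). The beta subunit, Atp4b, a glycoprotein needed for assembly and membrane targeting of the pump, read 81333, 80635 and 79481 in gastrin-infused knockouts and 50892, 47696 and 47678 in double knockouts. In saline-infused knockouts it read 61331, 63565 and 54946, and in wild type 72503, 88740 and 73558. Here too no array without gastrin reached an array with gastrin, but the double knockout lay wholly below the saline-infused knockout. The means of Atp4b were 80483 ± 935 with gastrin infusion, 48755 ± 1850 in double knockouts, 59947 ± 4473 with saline and 78267 ± 9085 in wild type (SD, n = 3 each).

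Kcnq1, the pore of the apical recycling channel, read 4153, 3891 and 3614 with gastrin infusion, and 3802, 3276 and 2508 in double knockouts. With saline it read 1598, 2221 and 1216, and in wild type 3463, 4991 and 3913. The saline arrays were the lowest of all 12, and the double knockout arrays overlapped those with gastrin. Mean intensities were 3886 ± 270 with gastrin infusion, 3195 ± 651 in double knockouts, 1678 ± 507 with saline and 4122 ± 785 in wild type (SD, n = 3 each). Kcne2, which in the mouse is required for the channel to conduct in the acid conditions of the gland lumen, read 7349, 6928 and 6201 with gastrin infusion and 5485, 5237 and 4119 in double knockouts. Saline gave 3202, 4085 and 3680, and wild type gave 6425, 7310 and 6363. The 2 groups with gastrin overlapped at the top for Kcne2, the double knockout lay between, and the saline group was lowest with no overlap. Its means were 6826 ± 581, 4947 ± 728, 3656 ± 442 and 6699 ± 530 for gastrin infusion, double knockout, saline and wild type (SD, n = 3 each).

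Kcnj15, the inward rectifier, did not share this order. It read 1442, 1416 and 1659 with gastrin infusion, 1563, 2319 and 1645 in double knockouts, 1243, 995 and 1198 with saline, and 1192, 1306 and 1832 in wild type. The highest array of all was a double knockout, and the wild-type arrays overlapped those of each of the other 3 groups. Mean intensity was 1506 ± 133 with gastrin infusion, 1842 ± 415 in double knockouts, 1145 ± 132 with saline and 1443 ± 341 in wild type (SD, n = 3 each).

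**Figure D1:**
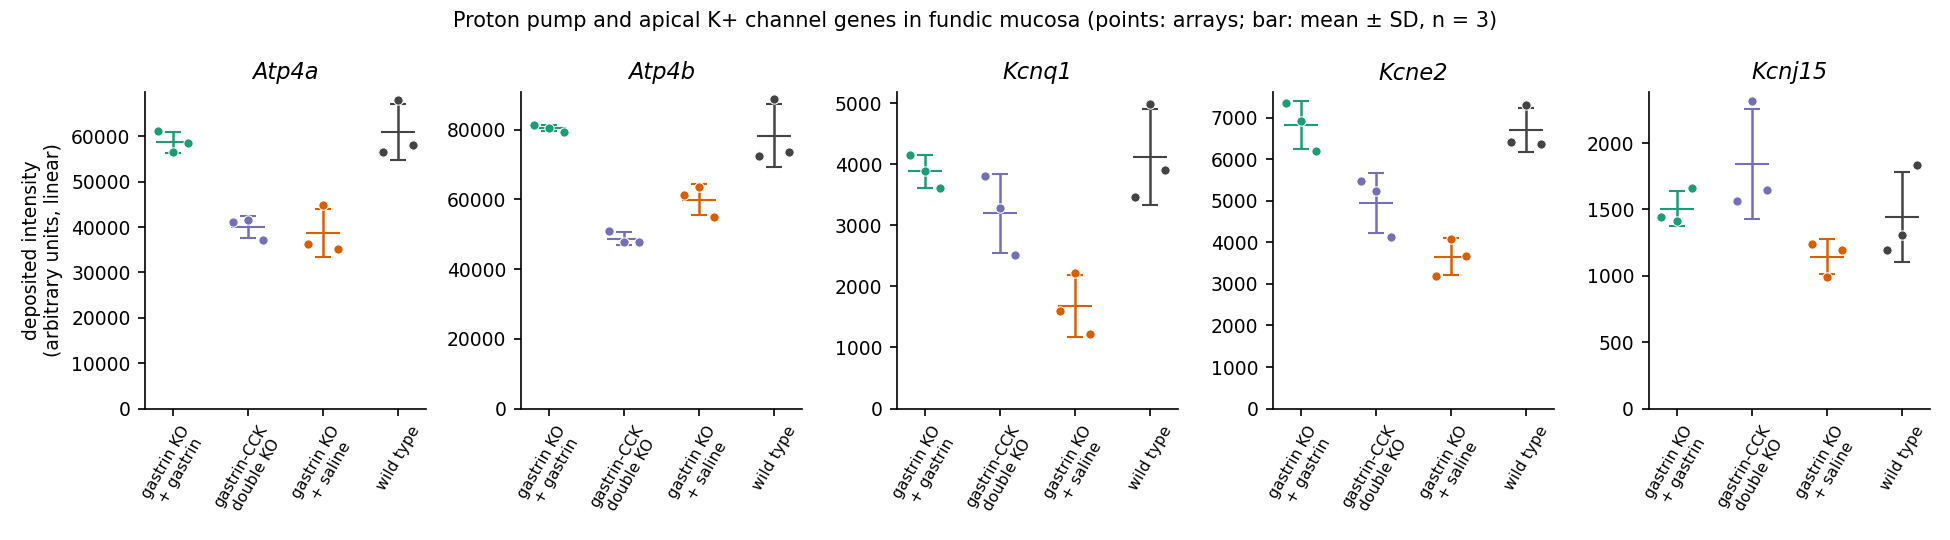
Deposited intensity (arbitrary linear units, axis from 0) of the 5 genes on each of the 12 arrays, one panel per gene, with the mean and SD of each group of 3. Atp4a, Atp4b and Kcne2 have all 6 arrays without gastrin below all 6 with it, Kcnq1 is lowest with saline, and Kcnj15 is highest on a double knockout array (2319).

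Without gastrin, in saline-infused knockouts set against wild type, the pump alpha subunit and both subunits of the recycling channel fell. A linear model holding the 4 group means was fitted over all 12 arrays with limma, and the p-values were adjusted over 22626 probe sets by the Benjamini-Hochberg method with a threshold of 0.05. Of the 5 genes 3 passed, all lower, where 1.37% of all probe sets passed lower and 2.08% passed in either direction. Kcnq1 had the largest log2 change of the 5, -1.32 ± 0.24 (SE), or 40.0% of the wild-type level (limma adjusted p = 0.0301). Kcne2 changed by -0.88 ± 0.13 on the log2 scale, to 54.4% of wild type (limma adjusted p = 0.0191). Atp4a changed by -0.66 ± 0.11, to 63.4% (limma adjusted p = 0.0256). Atp4b, the partner of Atp4a in the pump, had a log2 difference of -0.38 ± 0.09 and did not pass (limma adjusted p = 0.0681), though its 3 saline arrays were below all 3 wild-type arrays. It passed under quantile normalization, cyclic loess and a floor of 64 on the intensities (limma adjusted p = 0.0282 to 0.0480). The difference for Kcnj15 was -0.31 with a 95% interval of -0.76 to 0.13 (limma adjusted p = 0.445), so a fall of the size seen for Atp4a lay inside its interval. Arrays did not overlap for 4 of the 5 genes, all lower, where 12.4% of all probe sets had no overlap in that direction.

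These calls were close to the threshold. Leaving out saline array 1, saline array 3 or wild-type array 2 left 0 of the 3 calls, and leaving out wild-type array 3 left 1. The lost calls then had limma adjusted p-values of 0.0505 to 0.0967. Over all probe sets 94 to 285 calls were left on leaving out 1 array, where the full model had 470. Over these refits the log2 change stayed between -1.55 and -1.11 for Kcnq1, -0.96 and -0.79 for Kcne2, and -0.77 and -0.57 for Atp4a. With the Gapdh 3' to 5' ratio as a covariate 0 calls were left, at log2 changes of -1.18 for Kcnq1, -0.82 for Kcne2 and -0.58 for Atp4a (limma adjusted p = 0.126, 0.0848 and 0.107).

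A week of gastrin in the knockout was accompanied by higher levels of the same 3 genes. Gastrin-infused against saline-infused knockouts, both of them infused and of 1 genotype, is the comparison in which the infused hormone is the labelled difference. Of the 5 genes 3 passed higher, where 0.773% of all probe sets passed higher and 1.25% passed in either direction. Kcnq1 rose by 1.25 ± 0.24 (SE) on the log2 scale, a 2.38-fold change (limma adjusted p = 0.0432). Kcne2 rose by 0.90 ± 0.13, or 1.87-fold (limma adjusted p = 0.0255), and Atp4a by 0.61 ± 0.11, or 1.52-fold (limma adjusted p = 0.0393). Atp4b differed by 0.43 ± 0.09 and again did not pass (limma adjusted p = 0.0590), except under quantile normalization, cyclic loess, a floor of 64 and a filter at the median intensity (limma adjusted p = 0.0238 to 0.0422). Kcnj15 differed by 0.40, with a 95% interval of -0.04 to 0.84 (limma adjusted p = 0.369). All 3 gastrin-infused arrays were above all 3 saline arrays for each of the 5 genes, including the pair that did not pass, where 10.5% of all probe sets had no overlap in that direction. This comparison and the one before it share the saline arrays and are not independent.

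The calls after infusion were as close to the threshold as those without gastrin. Leaving out gastrin-infused array 1 or 2, or saline array 1 or 3, left 0 calls, and leaving out gastrin-infused array 3 left 1, with limma adjusted p-values of 0.0630 to 0.119 for the lost calls. The log2 change stayed between 1.04 and 1.48 for Kcnq1, 0.81 and 0.99 for Kcne2, and 0.54 and 0.72 for Atp4a over the 6 refits. Over all probe sets these refits left 67 to 137 calls, where the full model had 282. Without the 3 double knockout arrays, 1 call was left, Kcne2 (limma adjusted p = 0.0358), while the log2 changes of all 5 genes were the same by construction.

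With gastrin infused, none of the 5 genes could be told from wild type. In gastrin-infused knockouts against wild type 0 of the 5 genes passed at the adjusted threshold, where 0.11% of all probe sets passed, and 0 of 5 had an unadjusted p under 0.05. The log2 differences were -0.05 for Atp4a, 0.05 for Atp4b, -0.07 for Kcnq1, 0.03 for Kcne2 and 0.08 for Kcnj15 (limma adjusted p = 0.903 to 0.984). The 95% intervals bound what could have been missed. They ran from -0.30 to 0.20 for Atp4a, -0.16 to 0.25 for Atp4b and -0.28 to 0.33 for Kcne2. They were wider for the channel pore Kcnq1, from -0.60 to 0.46, and for Kcnj15, from -0.36 to 0.52.

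In the double knockout, which lacks CCK as well as gastrin, both pump subunits passed as lower than wild type and no channel gene passed. Against wild type 2 of the 5 genes passed, both lower, where 2.12% of all probe sets passed lower and 4.14% in either direction. Atp4b changed by -0.68 ± 0.09 (SE) on the log2 scale (limma adjusted p = 0.00802) and Atp4a by -0.61 ± 0.11 (limma adjusted p = 0.0229). Leaving out double knockout array 1 or 3, or wild-type array 2 or 3, lost the call of Atp4a (limma adjusted p = 0.0524 to 0.0694), and the call of Atp4b held on leaving out any 1 of the 6. Kcne2 differed by -0.45 ± 0.13 without passing (limma adjusted p = 0.103), with its 3 arrays below all wild-type arrays. Arrays did not overlap, all lower, for 3 genes, where 12.9% of all probe sets had no overlap in that direction. Kcnq1 differed by -0.37, with a 95% interval of -0.90 to 0.16 (limma adjusted p = 0.439), and Kcnj15 by 0.35, with an interval of -0.09 to 0.80 (limma adjusted p = 0.366).

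The pump genes are among the brightest, and the bright end of the double knockout arrays was lower as a whole. Atp4b and Atp4a ranked 11 and 31 in mean intensity among 22626 probe sets. The 100 brightest other probe sets had a median log2 difference of -0.39 in the double knockout against wild type, with quartiles of -0.51 and -0.30. Of these 100, 99 were negative and 42 passed lower. Atp4a at -0.61 and Atp4b at -0.68 lay below the lower quartile. Against the saline-infused knockout the median of the 100 was -0.48, with 67 passing lower. What lowered the bright end was not tested. In saline-infused knockouts against wild type the same 100 had a median of 0.07 and in gastrin-infused against saline-infused knockouts -0.06, with 0 of 100 passing in either. After quantile normalization the double knockout differed from wild type by -0.18 for Atp4a and -0.14 for Atp4b (limma adjusted p = 0.254 and 0.460), and after cyclic loess by -0.27 and -0.30 (limma adjusted p = 0.143 and 0.0948). Neither pump call in the double knockout held under either scaling. The 4 measured surface mucous markers all passed lower in the double knockout against wild type. They are among the 100 brightest probe sets counted above and are no separate observation. Kcne2, Kcnq1 and Kcnj15 ranked 1207, 2192 and 4672 in intensity. Their differences in the double knockout against wild type were -0.36, -0.34 and 0.34 after quantile normalization and -0.34, -0.33 and 0.36 after cyclic loess, in that order.

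**Figure D2:**
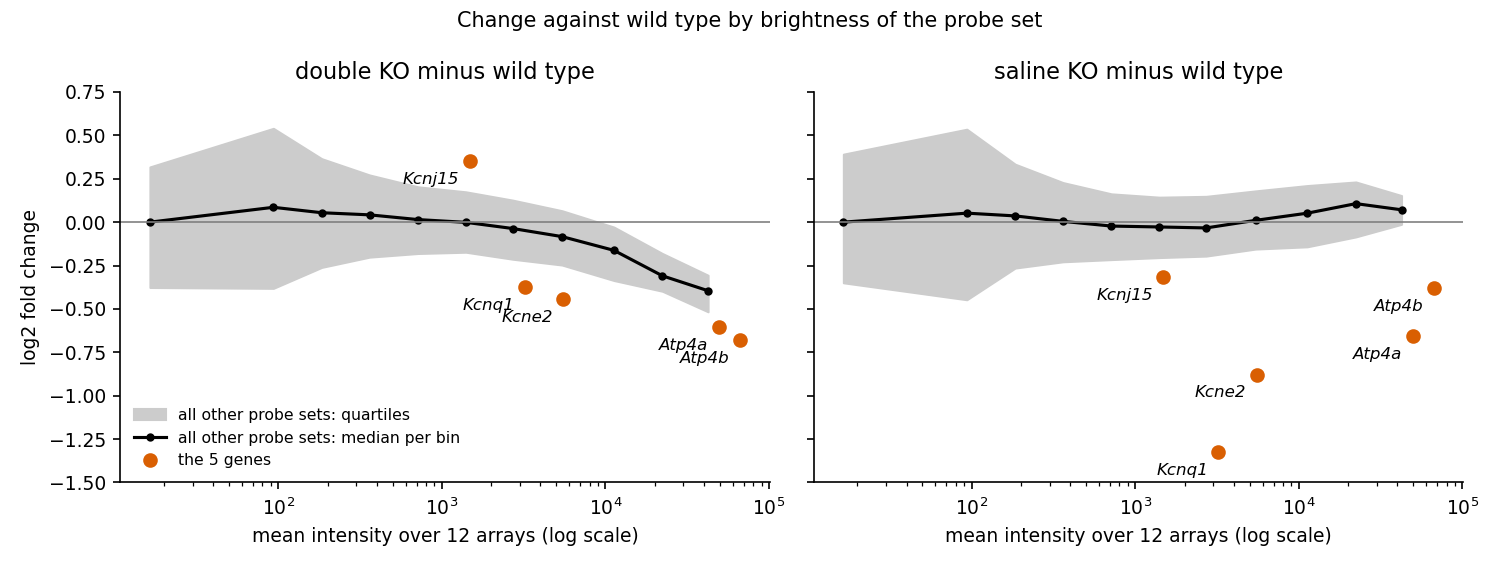
Log2 fold change against mean intensity over the 12 arrays (log axis) for the double knockout minus wild type and for the saline-infused knockout minus wild type. The line and band are the median and quartiles of all other probe sets in bins of brightness, and the points are the 5 genes. In the double knockout the median bends down to about the level of -0.39 at the bright end where the pump genes lie, and with saline it does not.

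Set directly against the saline-infused knockout, the double knockout had more Kcnq1 RNA and no detectable difference in Atp4a. Of the 5 genes 1 passed, Kcnq1, higher by 0.95 ± 0.24 (SE) on the log2 scale, or 1.93-fold (limma adjusted p = 0.0484), where 3.22% of all probe sets passed higher and 5.98% in either direction. Kcnj15 was 0.67 higher (limma adjusted p = 0.0834) and Kcne2 0.43 higher (limma adjusted p = 0.0955), both without passing and both with every double knockout array above every saline array. Both passed with a filter at the median intensity (limma adjusted p = 0.0255 for Kcnj15 and 0.0472 for Kcne2), and Kcne2 also under quantile normalization and cyclic loess (limma adjusted p = 0.0305 and 0.0337). No overlap, all higher, was found for 3 genes and, all lower, for 1 gene, Atp4b, where 13.5% and 12.7% of all probe sets had no overlap in those directions. Atp4a differed by 0.05, with an interval of -0.20 to 0.30, and Atp4b by -0.30 (limma adjusted p = 0.0917). Leaving out double knockout array 1 or 2, or saline array 1 or 3, lost the call of Kcnq1, at limma adjusted p-values of 0.110 to 0.151. Leaving out double knockout array 3 raised the count to 2, with Kcne2 at 0.56 (limma adjusted p = 0.0468). The pump genes turned on the scaling here too. Quantile normalization put the double knockout above the saline-infused knockout by 0.50 for Atp4a (limma adjusted p = 0.0103) and by 0.29 for Atp4b, and cyclic loess gave 0.47 (limma adjusted p = 0.0217) and 0.17. Infusion and the second deletion cannot be told apart in this comparison.

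In gastrin-infused against double knockouts, both pump subunits passed as higher on the deposited scale. Of the 5 genes 2 passed higher, where 2.75% of all probe sets passed higher and 5.83% in either direction. Atp4b was higher by 0.72 ± 0.09 (SE) on the log2 scale (limma adjusted p = 0.00472) and Atp4a by 0.56 ± 0.11 (limma adjusted p = 0.0232). The 100 brightest other probe sets were higher by a median of 0.41, and 0 of the 5 genes passed after quantile normalization or cyclic loess. The log2 differences were then 0.17 and 0.34 for Atp4b (limma adjusted p = 0.320 and 0.0526) and 0.17 and 0.22 for Atp4a (limma adjusted p = 0.241 and 0.200), in that order. The call of Atp4a was lost on leaving out any 1 of the 6 arrays (limma adjusted p = 0.0540 to 0.0660) and that of Atp4b on leaving out none of them. Arrays did not overlap, all higher, for 3 genes, where 13.1% of all probe sets had no overlap in that direction. Kcne2 was 0.47 higher (limma adjusted p = 0.0755, and 0.0351 with a filter at the median intensity), Kcnq1 0.30 higher (limma adjusted p = 0.516) and Kcnj15 differed by -0.27 (limma adjusted p = 0.475).

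**Figure D3:**
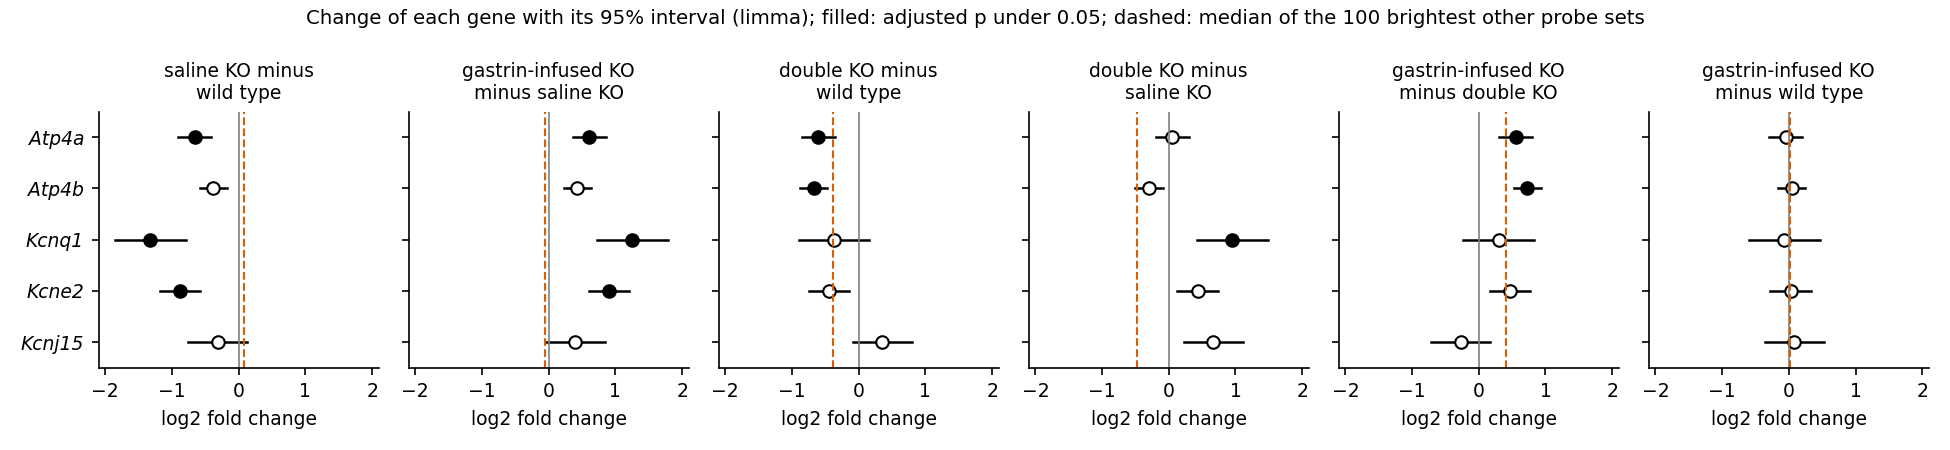
Log2 fold change of each of the 5 genes with its 95% interval in the 6 comparisons of 2 groups. Filled points passed at a limma adjusted p under 0.05, and the dashed line is the median of the 100 brightest other probe sets, at -0.39 for the double knockout minus wild type and 0.07 for the saline-infused knockout minus wild type.

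Both groups without gastrin were also taken against both groups with it. By design this gives every probe set a smaller standard error than a comparison of 2 groups. Of the 5 genes 4 passed lower in the 6 arrays without gastrin, where 2.59% of all probe sets passed lower and 4.58% in either direction. The log2 changes were -0.61 ± 0.08 (SE) for Atp4a (limma adjusted p = 0.00668) and -0.55 ± 0.06 for Atp4b (limma adjusted p = 0.00500). For the recycling channel they were -0.68 ± 0.09 for Kcne2 (limma adjusted p = 0.0102) and -0.81 ± 0.17 for Kcnq1 (limma adjusted p = 0.0312). Kcnj15 differed by -0.02, with a 95% interval of -0.33 to 0.29 (limma adjusted p = 0.966). Atp4a, Atp4b and Kcne2 had all 6 arrays without gastrin below all 6 with it, where 1.45% of all probe sets had no overlap in that direction. The exact permutation test over the 924 arrangements, two-sided, gave p = 0.00216 for each of these 3 genes. That is the smallest it can give and follows from the lack of overlap, so it adds nothing to it. The same exact test gave p = 0.00649 for Kcnq1 and p = 0.922 for Kcnj15. The calls of Atp4a, Atp4b and Kcne2 held on leaving out any 1 of the 12 arrays and after quantile normalization and cyclic loess. The pump changes were smaller under those scalings: -0.30 and -0.41 for Atp4b, and -0.43 and -0.47 for Atp4a, in that order. For Kcne2 both gave -0.64. The call of Kcnq1 was lost in 8 of the 12 refits, at limma adjusted p-values of up to 0.0711. These were the refits without any 1 gastrin-infused array, double knockout array 2 or 3, saline array 1, or wild-type array 2 or 3. The 100 brightest other probe sets had a median of -0.16 in this comparison, with 18 of 100 passing lower.

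The sizes of the differences were unlike among the 5 genes. Within each array the log2 ratio of Kcnq1 over Atp4a, set to a mean of 0 in wild type, averaged -0.02 ± 0.09 with gastrin infusion, 0.24 ± 0.23 in double knockouts and -0.67 ± 0.26 with saline (SD, n = 3 each). The saline values were -0.61, -0.44 and -0.95, so on every saline array the channel pore stood lower relative to the pump than on any other array. The ratio of Kcne2 over Atp4a averaged 0.08 ± 0.11 with gastrin infusion, 0.16 ± 0.14 in double knockouts and -0.22 ± 0.13 with saline. For Atp4b over Atp4a it averaged 0.10 ± 0.05, -0.07 ± 0.08 and 0.28 ± 0.13 in the same order, so in both groups without gastrin the 2 pump subunits lay closer to each other than the pore did to the alpha subunit. Kcnj15 over Atp4a averaged 0.96 ± 0.28 in double knockouts and 0.34 ± 0.36 with saline. These ratios are descriptions and were not tested. Deviations from the group means over the 12 arrays correlated among Atp4a, Atp4b, Kcnq1 and Kcne2 at r = 0.457 (Atp4b with Kcne2) to r = 0.907 (Atp4a with Kcnq1), with Atp4a and Atp4b at r = 0.784. Those of Kcnj15 with the other 4 genes were all negative, between -0.355 and -0.207. Arrays share their RNA and hybridisation across genes, so these correlations carry no p-value.

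Atp4a and Kcne2, which both passed with saline against wild type and with gastrin against saline, and Kcnj15, which passed in no comparison of the model reported here, have promoter entries in the RefSeq table for mouse assembly GRCm38.p6. The 250 bases before the transcription start are shown on the plus strand, 5′ to 3′, to let the start regions of 2 genes that passed be read beside 1 that did not pass. Capitals mark a match to a motif, here only the variant AAGGTTA described below.
Atp4a, chr7:30711959-30712208: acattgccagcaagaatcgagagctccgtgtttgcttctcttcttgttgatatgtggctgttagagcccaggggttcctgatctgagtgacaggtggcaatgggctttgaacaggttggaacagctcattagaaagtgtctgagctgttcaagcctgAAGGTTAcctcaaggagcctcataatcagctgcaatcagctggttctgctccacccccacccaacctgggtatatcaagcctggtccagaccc
Kcne2, chr16:92292139-92292388: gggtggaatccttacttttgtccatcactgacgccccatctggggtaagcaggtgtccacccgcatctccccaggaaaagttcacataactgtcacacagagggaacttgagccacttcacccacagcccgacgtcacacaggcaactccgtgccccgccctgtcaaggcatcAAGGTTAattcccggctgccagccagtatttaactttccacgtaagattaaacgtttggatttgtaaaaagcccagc
Kcnj15, chr16:95257308-95257557: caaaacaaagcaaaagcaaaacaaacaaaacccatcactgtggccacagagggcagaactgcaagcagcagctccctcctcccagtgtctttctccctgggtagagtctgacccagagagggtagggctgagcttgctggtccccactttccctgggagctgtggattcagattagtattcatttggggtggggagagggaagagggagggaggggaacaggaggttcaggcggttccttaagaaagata
The motifs searched on both strands were GATAA and GATAG, bound by GATA factors, AAGGTCA, bound by estrogen-related receptors, and TATAAA, the TATA element. They occur in 22.6%, 20.6%, 4.08% and 12.4% of the 32851 windows of this length in the table, and none of the 3 windows printed holds one. The variant AAGGTTA was added after the sequences had been seen, so finding it in these windows tests nothing. It lies 93 to 87 bases before the start of Atp4a and 77 to 71 bases before that of Kcne2, not in the Kcnj15 window, and in 2.23% of all windows. Kcne2 has a further start site in the table, whose window (chr16:92295366-92295615) holds 1 GATAA. A match is a run of letters and not a site in use.

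Other genes of the parietal cell gave a mixed account around these 5. The lists were chosen with results of these data known. Of 8 measured basolateral and ion transport genes, 1 passed lower with saline against wild type and 2 passed higher with gastrin against saline. The first is Slc4a2, the basolateral chloride-bicarbonate exchanger that disposes of the base left by acid secretion. Its intensity averaged 11824 ± 210 with gastrin infusion, 8287 ± 988 in double knockouts, 6979 ± 1039 with saline and 10675 ± 994 in wild type (SD, n = 3 each). It changed by -0.62 on the log2 scale with saline against wild type (limma adjusted p = 0.0472) and by 0.77 with gastrin against saline (limma adjusted p = 0.0332). The water channel gene Aqp4 rose by 0.94 with gastrin against saline (limma adjusted p = 0.0369). None of 14 other potassium channel and pump genes passed in either comparison. Their median log2 difference was 0.21 with saline against wild type and -0.16 with gastrin against saline, where the median of all probe sets was 0. With gastrin absent against present 2 of the 14 passed lower, Kcnj8 and Kcnj10, and 1 passed higher, Kcne1, at a median of 0.14. In that comparison 2.59% of all probe sets passed lower and 4.58% in either direction. Of these 14, 2 were at noise level in wild type and with saline, and 3 with gastrin infusion and in double knockouts. Of 13 measured genes of tubulovesicle traffic, the route that carries the pump to the surface, 0 passed in either comparison, at medians of 0.10 and -0.08.

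Of the 6 measured receptors for secretagogues and their inhibitors, 1 passed in these comparisons. Cckbr, the receptor through which gastrin acts, rose by 1.56 ± 0.22 (SE) on the log2 scale with gastrin against saline (limma adjusted p = 0.0213). Its mean intensity was 890 ± 112 with gastrin infusion, 340 ± 73.3 in double knockouts, 305 ± 68.5 with saline and 597 ± 95.6 in wild type (SD, n = 3 each). Hrh2, the histamine receptor of the parietal cell, averaged 1502 ± 18.5 with gastrin infusion and 1258 ± 71.4 with saline (limma adjusted p = 0.198). Of 7 regulators linked to parietal cells, 1 passed: Ppargc1a, a coactivator of mitochondrial genes, was lower with saline (456 ± 56.4) than in wild type (957 ± 162), at a log2 change of -1.06 (limma adjusted p = 0.0214). Unlike the members it read 380 ± 70.0 with gastrin infusion, and the difference from saline was -0.27 (limma adjusted p = 0.484).

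The samples are bulk tissue, in which fewer parietal cells and less RNA per parietal cell cannot be told apart. Of 9 measured parietal markers outside the 5 genes, 2 passed lower with saline against wild type, at a median log2 difference of -0.57, and 4 passed higher with gastrin against saline, at a median of 0.77. The summed intensity of these 9 was 54929 to 56666 with gastrin infusion, 36464 to 42709 in double knockouts, 33541 to 42544 with saline and 50432 to 57240 in wild type. The list shares Slc4a2, Aqp4, Cckbr, Slc26a7, Hrh2 and Ezr with those above, so it is largely not a separate observation. Only Ckb, Vegfb and Mfsd4a are not in the lists above. Of the shared genes Slc4a2, Aqp4 and Cckbr passed. The other gene that passed is Ckb, brain-type creatine kinase, which averaged 15226 ± 740 with gastrin infusion, 7646 ± 1081 in double knockouts, 5948 ± 1224 with saline and 14136 ± 2131 in wild type (SD, n = 3 each). As for the pump, both groups with gastrin had higher sums than both groups without it.

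Markers of the squamous forestomach, which adjoins the fundus, varied between arrays. Of 11 measured forestomach markers 1 passed higher with saline against wild type and 2 passed lower with gastrin against saline. Their summed intensity was 5789 to 22248 with gastrin infusion, 7477 to 43482 in double knockouts, 13656 to 47016 with saline and 8354 to 21513 in wild type. At most 1 of the 11 was at noise level in any group. With that sum as a covariate the log2 changes with saline against wild type were -1.14 for Kcnq1, -0.79 for Kcne2 and -0.55 for Atp4a (limma adjusted p = 0.0825, 0.0563 and 0.0592). With gastrin against saline they were 1.04, 0.80 and 0.48 (limma adjusted p = 0.0943, 0.0560 and 0.0785), so 0 calls were left in either comparison. Stromal markers lay in the same directions as the parietal ones, with medians close to theirs. Of 10 stromal markers 0 passed in those comparisons, but all 10 were lower with saline against wild type, at a median log2 difference of -0.58, and all 10 were higher with gastrin against saline, at a median of 0.74. Their summed intensity was 19826 to 37005 with gastrin infusion, 12533 to 16087 in double knockouts, 10738 to 20191 with saline and 18484 to 21862 in wild type. The part of stroma in the results was not tested. Of 3 markers of enterochromaffin-like cells 1 passed lower with saline against wild type and 2 passed higher with gastrin against saline. Their summed intensity was 14788 to 22341 with gastrin infusion, 2658 to 3696 in double knockouts, 2484 to 2826 with saline and 7339 to 12887 in wild type. Of 5 chief cell, 4 surface mucous, 2 mucous neck, 6 immune, 3 pancreas and 4 intestine markers 0 passed in either comparison, and of 3 blood markers 1 passed higher with saline against wild type.

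Likeness to the 5 genes was the Pearson correlation of log2 intensity with the mean standardised profile of the 5 genes, over 10382 probe sets at or above the median intensity with 1 symbol. The 10 highest were Igfbp2 (r = 0.977), Rdh7 (0.966), Gas6 (0.964), Slc4a2 (0.963), Hibadh (0.963), Grhpr (0.960), Sdha (0.960), Pi4k2a (0.959), Cd36 (0.959) and Ckb (0.958). Igfbp2 encodes a binding protein of insulin-like growth factors. Its intensity averaged 3840 with gastrin infusion, 2068 in double knockouts, 1534 with saline and 3369 in wild type. Hibadh acts in valine breakdown and Sdha is a subunit of succinate dehydrogenase. Hibadh averaged 6911 with gastrin infusion, 5217 in double knockouts, 3354 with saline and 7451 in wild type, and Sdha averaged 5224, 4045, 3530 and 5055 in the same order. These genes were picked for their likeness and share arrays with the members, so their values are a description.

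Taken singly, the members had different closest genes. The closest to Atp4a were Ndufa3 (r = 0.971), Fth1 (0.968) and Coq9 (0.964), and the closest to Atp4b were Ndufa1 (0.973), Cox6b1 (0.969) and Cops9 (0.966). Ndufa3, Ndufa1 and Cox6b1 are subunits of the respiratory chain, and Fth1 is the heavy chain of ferritin. Fth1, Cox6b1 and Ndufa1 are bright too, at wild-type means of 44425, 38653 and 23553. Ndufa1, Cox6b1 and Cops9 did not pass with saline against wild type (limma adjusted p = 0.119 to 0.279). They passed lower in the double knockout against wild type (limma adjusted p = 0.0176 to 0.0439). The part of the lower bright end of those arrays in these correlations was not tested. The closest to Kcnq1 were Gas6 (0.977), Macrod1 (0.970) and Ivd (0.970), and the closest to Kcne2 were Pcca (0.980), Mrpl34 (0.977) and Hibadh (0.972). Ivd and Pcca encode mitochondrial enzymes of branched-chain amino acid and propionate breakdown. The closest to Kcnj15 were Mtch2 (0.870), Ubqln2 (0.866) and 2610507B11Rik (0.859), none of which was among the closest to the other members.

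**Figure D4:**
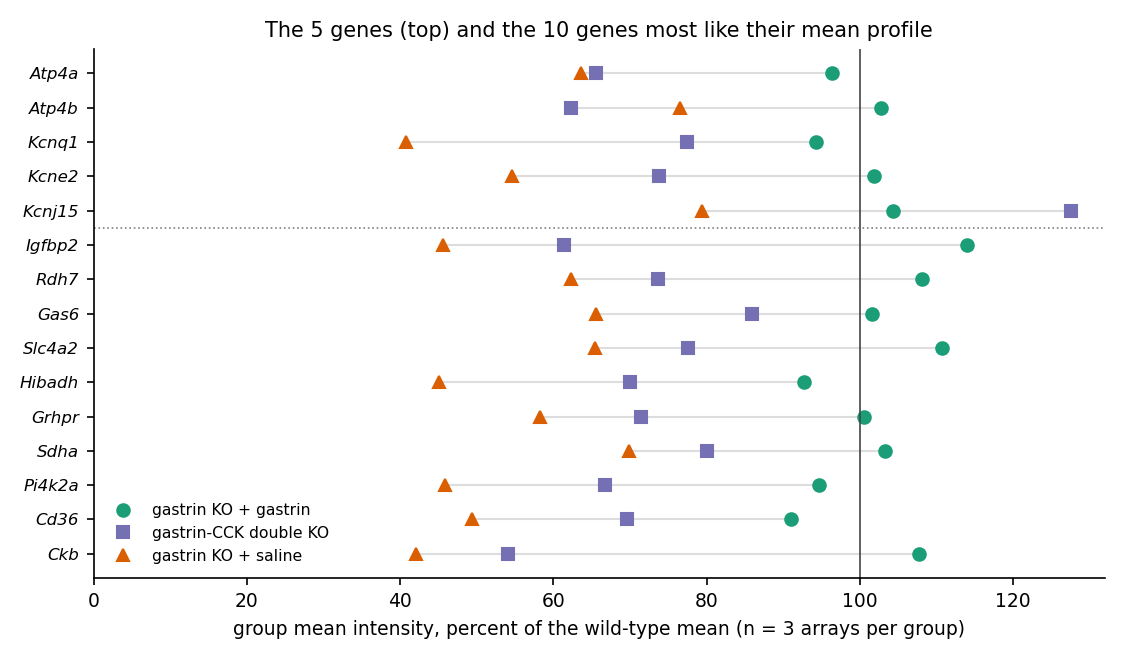
Mean intensity with gastrin infusion, in the double knockout and with saline, as a percent of the wild-type mean (3 arrays per group), for the 5 genes above the dotted line and the 10 genes with the highest correlation to their mean profile below it. Saline is lowest for every gene but Atp4b, and only Kcnj15 has its double knockout mean above wild type.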

How the data were processed

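Total RNA from fundic mucosal scrapings was labelled with biotin and hybridised to one-colour arrays, per the labels' protocols. The values used are the deposited probe-set intensities, whole numbers on a linear scale with some negative entries. How the authors summarised probes, corrected background and scaled the arrays is not given in the sources used here. Removing 64 control probe sets from 22690 left 22626, of which 20380 carried a single gene symbol, 691 more than 1, and 1555 no entry in the probe table.

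Array medians were alike, so no scaling was added. A floor of 16 was set on the intensities before the log2 step. The 4 group means were fitted over all 12 arrays with limma 3.58.1 in R 4.3.3 (8 residual and 1.10 prior degrees of freedom). Adjustment was by Benjamini-Hochberg across all 22626, at 0.05. The 7 contrasts of this model share arrays. SE and 95% intervals come from the same model, and group means are of deposited intensities. The number of arrays limits the precision. The model was run on simulated data with known changes. Those data had independent noise and no array-wide effects such as a lower bright end, so they do not test the calls made here. Gastrin absent against present was also tested by exact permutation over 6 and 6 arrays, which treats the 2 groups of each side as one.

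The 5 genes are described whatever their result. From the lists of related genes only those passing with saline against wild type or gastrin against saline are given with values. Cckbr, Hrh2, Slc4a2 and Hdc were permitted besides. A marker gene is represented by its brightest probe set. The members and lists were chosen with earlier results of these data known. Noise level was the lowest percentile of an array with the sign turned. Alternatives were quantile normalization, median centring, a filter at the median intensity, floors of 1 and 64, a fit of the groups compared only, a replicate block, the Gapdh 3' to 5' ratio as a covariate and leaving out each array. Cyclic loess, forestomach markers as a covariate, and fits without the double knockout arrays or without wild-type arrays 1 and 2 were added after the data were seen. Shared replicate numbers were not taken to mark paired samples. Promoter sequences are RefSeq's for GRCm38.p6, given for 3 of the 5 genes. Figures used Python 3.11.15 and matplotlib 3.10.9.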

Additional observations from a re-analysis of the deposited data

Results flagged for a closer look

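The change of Kcnq1 against wild type differed between the 2 kinds of knockout. It was -0.37 on the log2 scale in the double knockout and -1.32 in the saline-infused gastrin knockout, and the difference itself, double knockout minus saline-infused knockout, was 0.95 ± 0.24 (SE; 3 arrays each; limma adjusted p = 0.0484), with all 3 double knockout arrays above all 3 saline arrays. Both changes are taken against the same wild-type arrays, which drop out of the difference. Infusion, the deletion of CCK and whatever set the double knockout arrays apart cannot be told apart here. The difference was 0.95 after quantile normalization (limma adjusted p = 0.0278) and 0.98 after cyclic loess (limma adjusted p = 0.0249), and 0.86 with the Gapdh ratio as a covariate (limma adjusted p = 0.109). Groups of 3 arrays were too small to be searched for single outlying arrays.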

How the results depend on the processing

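Over all probe sets the alternatives gave 22 to 827 calls with saline against wild type (470 in the full model). They gave 20 to 705 with gastrin against saline (282) and 43 to 1299 for the double knockout against wild type (936). Leaving out 1 array gave 496 to 928 for double against saline-infused knockouts (1352) and 541 to 911 for gastrin-infused against double knockouts (1319). For gastrin absent against present it gave 482 to 772 (1037). Numbers of the 5 genes passing follow. With saline against wild type (3) the count was 4 under quantile normalization, cyclic loess and a floor of 64, where Atp4b was gained, 2 without the double knockout arrays, 0 in a fit of the groups compared only, with the Gapdh ratio or forestomach markers as a covariate and without wild-type arrays 1 and 2, and 0 to 3 on leaving out 1 array. With gastrin against saline (3) it was 4 under those settings and the filter, again with Atp4b gained, 0 in the fit of the groups compared only, with forestomach markers and without wild-type arrays 1 and 2, 1 with the Gapdh ratio, median centring or without the double knockout arrays, and 0 to 3 on leaving out 1 array. For the double knockout against wild type (2) it was 0 under quantile normalization, cyclic loess, the fit of the groups compared only and without wild-type arrays 1 and 2, and 1 to 2 on leaving out 1 array. Against saline (1) it was 3 under quantile normalization and cyclic loess, with Atp4a and Kcne2 gained, 3 under the filter, with Kcne2 and Kcnj15 gained, 0 with the fit of the groups compared only, a floor of 1, either covariate, median centring or without wild-type arrays 1 and 2, and 0 to 2 on leaving out 1 array. For gastrin-infused against double knockouts (2) it was 0 under quantile normalization and cyclic loess, 3 under the filter, with Kcne2 gained, and 1 on leaving out any 1 array. Gastrin absent against present (4) gave 2 without wild-type arrays 1 and 2 and otherwise 3 or 4. Gastrin infused against wild type gave 0 in all 18 alternatives. Fits without arrays have fewer samples; beyond that the cause was not tested.

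Only differences that had not passed turned sign. Between double and saline-infused knockouts Atp4a gave -0.0025 with the Gapdh ratio and -0.016 to 0.16 on leaving out 1 array, and Atp4b gave 0.29 under quantile normalization and 0.17 under cyclic loess. Between gastrin-infused knockouts and wild type, the Gapdh ratio gave 0.0059 for Atp4a, 0.028 for Kcnq1 and -0.045 for Kcnj15. Without wild-type arrays 1 and 2, Atp4a gave 0.015 and Kcnj15 -0.29, and in the double knockout against wild type Kcnj15 gave -0.015. Leaving out 1 array gave -0.099 to 0.033 for Atp4a, -0.0056 to 0.14 for Atp4b, -0.19 to 0.076 for Kcnq1, -0.029 to 0.094 for Kcne2 and -0.043 to 0.27 for Kcnj15. For gastrin absent against present Kcnj15 gave 0.11 with forestomach markers and -0.11 to 0.071 on leaving out 1 array.

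Over all probe sets, the fit of the groups compared only lowered the calls from 470 to 22 with saline against wild type, from 282 to 20 with gastrin against saline and from 936 to 43 for the double knockout against wild type. Same-numbered arrays deviated from their group means with r of -0.125 to 0.197 over 18 pairs, 1 of them over 0.1, so the numbers were not taken as pairs. With a replicate block the count of members passing was 2 with gastrin against saline, where Atp4a had a limma adjusted p of 0.0560, and was the same in the other 6 comparisons. Over all probe sets the block gave 239 calls with saline against wild type, 140 with gastrin against saline and 8 with gastrin infused against wild type, where the model without it gave 25. Averaging probe sets of a gene was not run because each member has 1.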
